A study of Mus musculus with 93 samples.

Results

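Oocytes of wild type mice aged 6 months were compared with oocytes of wild type mice aged 4 weeks, gene by gene. The 6 month group held 11 libraries and the 4 week group 12, together 23 of the 93 samples of the series. Genes were joined by symbol, and 15462 were held by the count tables of both ages. Of these, 10850 had enough counts to be tested.

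The series profiled granulosa cells, the somatic cells around the oocyte, and oocytes, each from mice of 2 genotypes (wild type and Esr2 knockout), at 3 ages. Libraries were made by Smart-seq2, which copies whole messenger RNAs from tiny inputs. Esr2 encodes estrogen receptor beta. Where they bear on the wild type comparison, 4 libraries of Esr2 knockout oocytes at 6 months, 7 of Esr2 knockout oocytes at 4 weeks and 5 of wild type oocytes at 7 weeks were used too. The mouse strain, the kind of Esr2 allele, any hormone treatment, the stage of the oocytes and the number of oocytes in a library are not given in the sources used here. No animal, litter or batch is named for any library, so the p-values rest on differences among libraries that may be technical as well as biological. Each age came as a table of its own, so age and anything that differed between the tables, such as the time or plate of library making, cannot be told apart.

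An oocyte builds up a store of messenger RNA and protein while it grows, and on this store it completes meiosis and supports the first divisions of the embryo. Transcription stops when growth ends, so levels in a full-grown oocyte also reflect how long each stored message lasts. The oocyte secretes the zona pellucida around itself and sends growth factors such as GDF9 and BMP15 to its granulosa cells, while its many mitochondria are all passed to the embryo.

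The 6 month libraries held 2211690 to 7172700 estimated counts and the 4 week libraries 2415440 to 6485250. Transcripts of 15 oocyte markers together made up 33159.6 to 71832 CPM (counts per 1000000 of the library) at 6 months and 25732 to 57321 CPM at 4 weeks, so all 23 libraries held oocyte transcripts in bulk. Of 16 granulosa markers 7 had a row in either table, Foxl2, Amh and Fshr not among them. The sum of those 7 lay at 47.1 to 192 CPM at 6 months and 63.4 to 313 CPM at 4 weeks. In wild type granulosa libraries the median sum was 3036 CPM at 6 months and 3922 CPM at 4 weeks. That granulosa sum took in every listed marker found in the granulosa counts, so it may cover more genes than those 7. By medians, most of the granulosa marker sum in oocyte libraries was Cyp19a1, with 58.9 CPM at 6 months and 88.2 CPM at 4 weeks. Inha had medians of 0.537 CPM at 6 months and 0.676 CPM at 4 weeks. In most libraries the sum therefore mainly follows 1 gene. Its top does not, as Inha reached 55.0 CPM in its highest 6 month library and 153 CPM in its highest 4 week library. The highest values of Cyp19a1 were 89.7 CPM at 6 months and 113.6 CPM at 4 weeks. None of the 8 marker lists with a value passed a permutation test between the ages (granulosa adjusted p = 0.379, luteal adjusted p = 0.361, the smallest). Single libraries held more of some somatic markers. Apoe, Lyz2 and Hsd3b1 reached 467, 337 and 172 CPM in their highest 4 week library, and Akr1c18 reached 106 CPM in its highest 6 month library. Libraries of samples 2 and 5 at 6 months and of sample 5 at 4 weeks were least like their groups, with rank correlations of 0.859, 0.910 and 0.881 with the rest of their group.

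At 6 months 983 genes were higher and 777 lower than at 4 weeks, that is 9.06% and 7.16% of the 10850 genes tested (edgeR quasi-likelihood test, Benjamini-Hochberg adjusted p under 0.05). Of these, 372 rose and 182 fell at least 2-fold. Without the 3 libraries least like their groups, 1272 genes were called higher and 1380 lower, 2652 in all. Levels are shares of a library, so fewer oocytes or other cells of one kind and less of a transcript per cell cannot be told apart. The groups did not overlap at all for 42 genes, 0.387% of those tested, 29 of them higher and 13 lower at 6 months. The plot of fold change against adjusted p shows both directions.

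**Figure D1:**
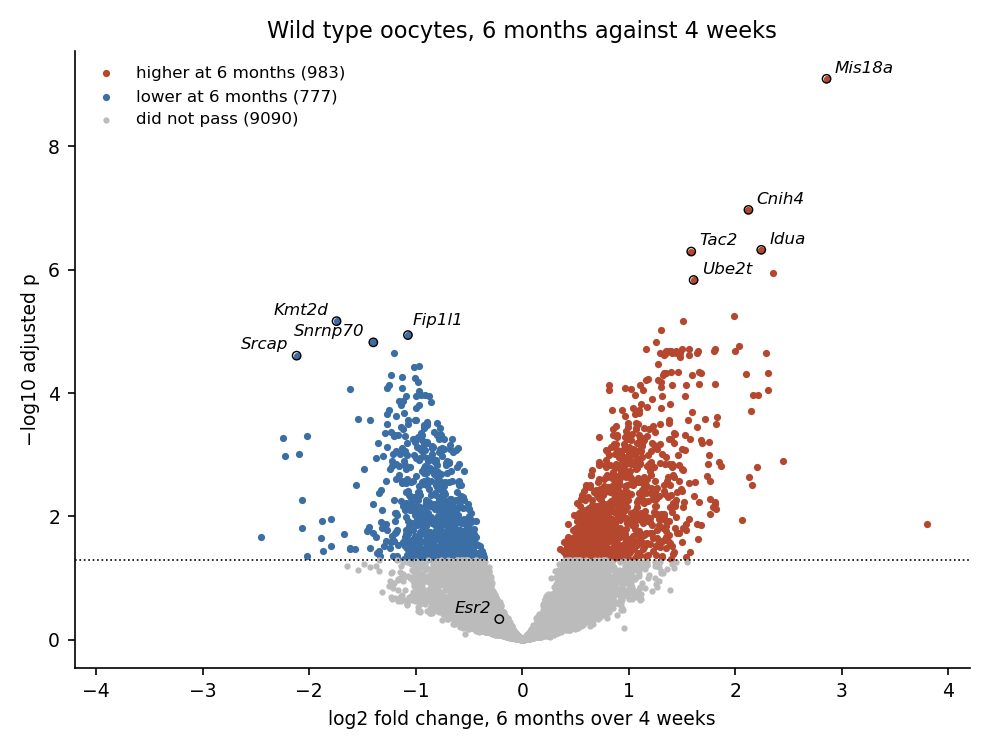
Each point is 1 of 10850 genes tested in wild type oocytes. The x axis is the log2 fold change of 6 months over 4 weeks and the y axis −log10 of the adjusted p. Red points are the 983 genes higher at 6 months, blue points the 777 lower ones and grey points the 9090 that did not pass, Esr2 among them, and Mis18a stands highest.

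The gene with the smallest p was Mis18a, a member of the complex that prepares centromeres for new CENP-A histone. It lies at chr16:90719312-90727404 (mm10, GENCODE vM21). Its lowest, median and highest library had 54.1, 125 and 278 CPM in 6 month oocytes, against 13.1, 17.5 and 22.2 CPM in 4 week oocytes. Every 6 month library lay above every 4 week library. The log2 fold change of Mis18a was 2.86 ± 0.22 (standard error, SE), with adjusted p = 8.06e-10. Cnih4, a cargo receptor of the early secretory pathway at chr1:181144693-181168994, had 82.8, 118 and 148 CPM in 6 month oocytes, against 12.1, 26.5 and 49.1 CPM in 4 week oocytes, again with no overlap. Its log2 fold change was 2.12 ± 0.21, with adjusted p = 1.07e-07. Idua, the lysosomal enzyme alpha-L-iduronidase, had 16.2, 25.02 and 41.5 CPM in 6 month oocytes, against 1.22, 6.12 and 7.77 CPM in 4 week oocytes. The groups did not overlap, and the log2 fold change was 2.24 ± 0.24, with adjusted p = 4.77e-07. Slc26a1, which overlaps Idua on the other strand, had a log2 difference of -0.86 with adjusted p = 0.307.

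Another 9 higher genes made up the 12 with the smallest p. Tac2, the precursor of neurokinin B, had 39.8, 46.6 and 70.5 CPM in 6 month oocytes, against 8.63, 16.3 and 24.8 CPM in 4 week oocytes, with no overlap and a log2 fold change of 1.59 ± 0.17. Ube2t, the ubiquitin-conjugating enzyme of the Fanconi anaemia pathway, had 691, 874 and 1277 CPM in 6 month oocytes, against 148, 309 and 500.2 CPM in 4 week oocytes. These groups did not overlap either, and the log2 fold change was 1.61 ± 0.18. Tctex1d2, a dynein light chain, rose by 2.35 on the log2 scale, with medians of 19.9 CPM in 6 month and 3.96 CPM in 4 week oocytes. The log2 fold changes were 1.98 for Tm2d1, 1.51 for Eef1e1, a part of the aminoacyl-tRNA synthetase complex, 1.30 for Med21, a Mediator subunit, and 1.25 for Ifitm6. Those of Lsm6, a member of the ring that binds uridine-rich RNA ends, and Lactb2, a mitochondrial endoribonuclease, were 2.03 and 1.56. Of these 9 genes the groups overlapped for Ifitm6 alone. Ranked by fold change, Dct, Mtx2 and Rapsn joined Mis18a, Tctex1d2 and Idua. Dct, an enzyme of melanin synthesis, had 1.67, 2.85 and 29.6 CPM in 6 month oocytes, against 0, 1.03 and 2.25 CPM in 4 week oocytes, so 1 library at 6 months stood far above the rest. That library, sample 2, is among the 3 least like their groups, and without these 3 the log2 fold change was 1.70, against 2.45 with all libraries. Mtx2, which helps to import proteins into mitochondria, had medians of 18.2 CPM in 6 month and 3.57 CPM in 4 week oocytes, and Rapsn 7.61 CPM in 6 month and 1.51 CPM in 4 week oocytes. Gm13778 overlaps Rapsn on the other strand and rose too, by 1.45 on the log2 scale. Whether reads were counted by strand is not given in the sources used here.

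The lower gene with the smallest p was Kmt2d, a histone methyltransferase that marks enhancers, at chr15:98831669-98871204. It had 70.7, 145 and 244 CPM in 6 month oocytes, against 221, 492 and 775 CPM in 4 week oocytes. Only the edges of the groups overlapped, and all 11 libraries at 6 months lay below the 4 week median. The log2 fold change was -1.74 ± 0.22, with adjusted p = 6.83e-06. Fip1l1, a subunit of the complex that cleaves and polyadenylates messenger RNA, had 137, 185 and 237 CPM in 6 month oocytes, against 268, 392 and 619 CPM in 4 week oocytes, with no overlap. Its log2 fold change was -1.07 ± 0.14, with adjusted p = 1.15e-05. Snrnp70, a core protein of the U1 splicing particle, had 91.1, 152 and 287 CPM in 6 month oocytes, against 245, 493 and 575 CPM in 4 week oocytes. These groups overlapped in a few libraries, and the log2 fold change was -1.40 ± 0.18, with adjusted p = 1.51e-05.

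Srcap, the motor subunit of a chromatin remodelling complex that exchanges histone variants, had 0, 12.3 and 23.6 CPM in 6 month oocytes, against 32.2, 55.5 and 75.8 CPM in 4 week oocytes. The groups did not overlap, and the log2 fold change was -2.12 ± 0.30. Cabin1, Jade2, Mark2, a cell polarity kinase, and Cant1 had log2 fold changes of -0.97, -1.02, -1.13 and -1.01, with no overlap. Atxn2l, a stress granule protein, Mdc1, the scaffold of the DNA damage response at chromatin, Ywhab, a phosphoprotein-binding adaptor, and Hectd4 had log2 fold changes of -1.20, -1.23, -0.98 and -1.25, with overlap at the edges. By fold change, Iars2, Btbd17, Lrch4, Bloc1s4 and Tcf4 joined Srcap, with log2 changes from -2.45 to -2.06. The 6 month medians of the genes that joined Srcap lay between 0.714 and 7.52 CPM and their 4 week medians between 3.16 and 40.7 CPM. For each of them the groups overlapped. Gm20605, which overlaps Lrch4 on the same strand, had medians of 38.1 CPM in 6 month and 42.0 CPM in 4 week oocytes. Its log2 difference was -0.10, with edgeR adjusted p = 0.886. Esr2 itself had 32.6, 81.2 and 127 CPM in 6 month oocytes, against 46.5, 95.5 and 112 CPM in 4 week oocytes, a log2 difference of -0.21 ± 0.18 with adjusted p = 0.462. Esr1, which encodes estrogen receptor alpha, had 21.5, 36.8 and 86.1 CPM in 6 month oocytes, against 19.4, 44.4 and 57.5 CPM in 4 week oocytes, a difference of -0.04 ± 0.21 with adjusted p = 0.910. The groups overlapped widely for both receptors.

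**Figure D2:**
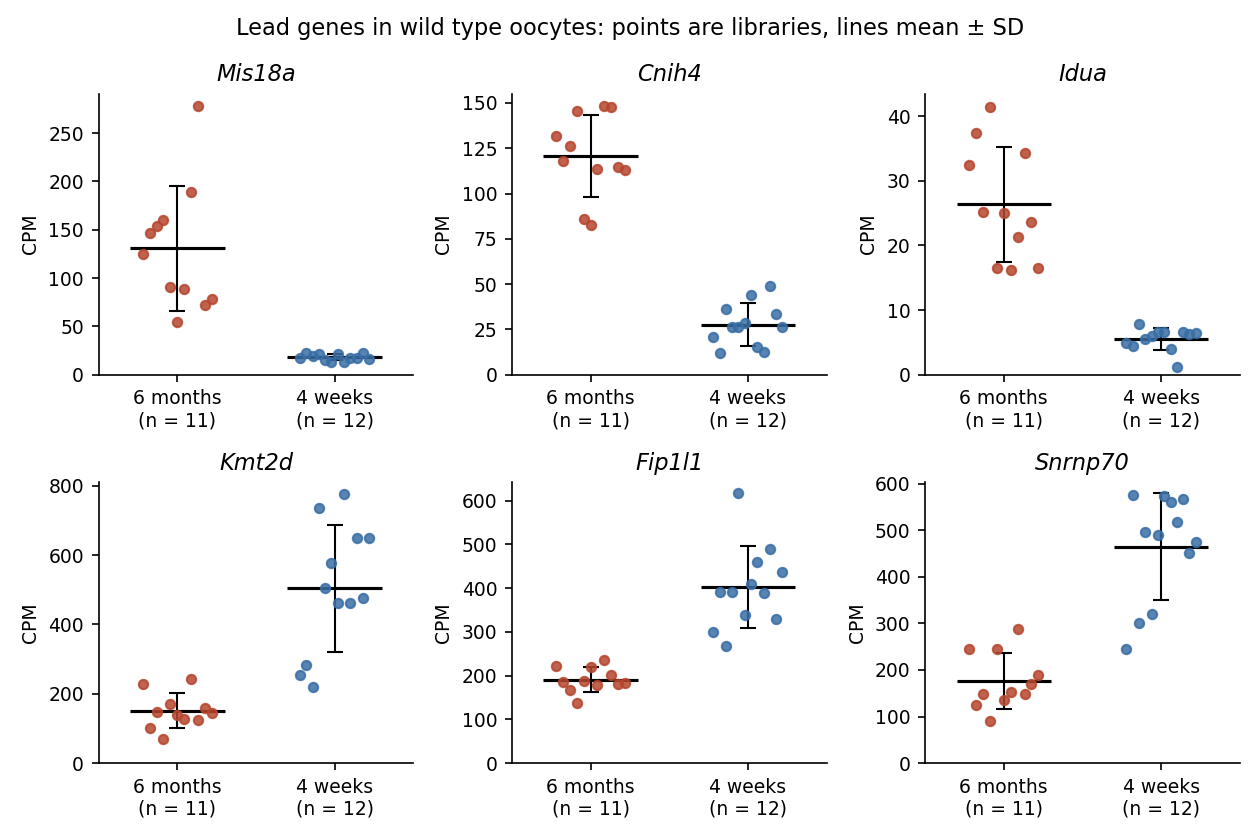
CPM (y axes, from 0) of the 3 higher and the 3 lower genes with the smallest p, for 11 libraries at 6 months (red, left) and 12 at 4 weeks (blue, right). Points are libraries, thick lines the mean and bars the SD over libraries. Mis18a, Cnih4, Idua and Fip1l1 show no overlap between the ages, while Kmt2d and Snrnp70 overlap in a few libraries.

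The promoters of the first 2 genes in each direction are shown to place the genes the comparison leads with. Each runs from 250 bases before to 50 bases after the start of the gene, from RefSeq (GRCm38.p6), and is read 5′ to 3′ on the gene's strand. Capitals mark the GC box GGGCGG or its reverse complement CCGCCC, which is found in 35.9% of all 27025 promoters of the same length. The windows are chr16:90727322-90727621, minus strand, for Mis18a, chr1:181150681-181150980, plus strand, for Cnih4, chr15:98871156-98871455, minus strand, for Kmt2d, and chr5:74535241-74535540, plus strand, for Fip1l1. The RefSeq window of Cnih4 lies inside the GENCODE span given above, so the 2 annotations place the start of this gene differently.

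Mis18a: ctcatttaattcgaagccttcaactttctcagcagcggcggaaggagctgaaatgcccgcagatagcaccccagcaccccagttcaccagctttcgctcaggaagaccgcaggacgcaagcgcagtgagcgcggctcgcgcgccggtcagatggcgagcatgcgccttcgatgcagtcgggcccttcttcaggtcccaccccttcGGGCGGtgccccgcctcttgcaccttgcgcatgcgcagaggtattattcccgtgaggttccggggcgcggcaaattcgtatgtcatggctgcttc

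Cnih4: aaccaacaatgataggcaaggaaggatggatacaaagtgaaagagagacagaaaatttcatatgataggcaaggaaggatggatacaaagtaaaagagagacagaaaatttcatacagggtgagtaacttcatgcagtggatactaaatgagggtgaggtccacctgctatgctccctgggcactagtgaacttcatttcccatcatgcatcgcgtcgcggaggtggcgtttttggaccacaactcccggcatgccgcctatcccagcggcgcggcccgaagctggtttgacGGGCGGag

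Kmt2d: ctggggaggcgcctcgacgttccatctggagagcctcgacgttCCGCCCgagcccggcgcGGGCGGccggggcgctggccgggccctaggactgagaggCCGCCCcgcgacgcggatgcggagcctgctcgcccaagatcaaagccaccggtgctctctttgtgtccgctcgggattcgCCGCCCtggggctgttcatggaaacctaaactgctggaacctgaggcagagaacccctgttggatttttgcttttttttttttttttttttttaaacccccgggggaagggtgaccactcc

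Fip1l1: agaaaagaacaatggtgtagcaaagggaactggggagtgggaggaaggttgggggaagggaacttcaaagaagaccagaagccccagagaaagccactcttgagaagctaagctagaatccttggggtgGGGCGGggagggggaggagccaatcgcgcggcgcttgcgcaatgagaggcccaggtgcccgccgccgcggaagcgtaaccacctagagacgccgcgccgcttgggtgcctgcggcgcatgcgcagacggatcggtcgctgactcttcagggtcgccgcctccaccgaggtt

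All 4 windows hold the GC box, Kmt2d 4 times and each of the others 1 time. The GC content of the window was 61.7% for Mis18a, 49.7% for Cnih4, and 62.7% for Kmt2d and Fip1l1 alike, against a median of 52.7% over all promoters. The E box CACGTG, found in 7.24% of all promoters, was searched too and had no match in the 4 windows, on either strand.

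Genes with short transcripts were more often called higher at 6 months, and genes with long transcripts more often lower. Length here is the median over a gene's annotated transcripts, which 98.3% of the tested genes have, and the genes were split into 5 equal bins. In the bin with the shortest transcripts, up to 935 bases, 21.2% were called higher and 4.03% lower. In the bin with the longest, from 3661 bases, 2.34% were called higher and 12.7% lower. The median log2 fold change over all genes of the bin was 0.28 in the shortest and -0.24 in the longest. GC content ran alongside, with 12.7% higher and 1.69% lower in the bin of lowest GC, and 5.11% higher and 14.5% lower in that of highest GC. Across 10670 genes the rank correlation of fold change was -0.36 with length and -0.26 with GC content, as a description of genes that share their libraries. The rank correlation of a library's deviation from the gene means with transcript length ran from -0.44 to 0.16 at 6 months, with a median of -0.22. At 4 weeks it ran from -0.01 to 0.29, with a median of 0.13. The 2 ages overlapped in this measure only through samples 2 and 5 at 6 months, at 0.129 and 0.159. Both are among the 3 libraries least like their groups. The next highest 6 month library, sample 6, was at -0.017, below the lowest 4 week library, sample 10, at -0.0067.

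A smooth trend with length and GC content was therefore taken out of each library in a second fit, chosen after the data were seen. It called 615 genes higher and 547 lower (5.67% and 5.04% of 10850), and 905 genes passed both fits. All 12 lower and all 12 higher genes with the smallest p stayed past the threshold with the same sign. The fit rests on the annotated median length, and which transcripts of a gene the oocytes held was not tested. Snrnp70 and Mdc1, for example, entered it with 618 and 649 bases. Their log2 fold changes were -1.59 and -1.49 in it, after -1.40 and -1.23. Mis18a had a log2 fold change of 2.60 in that fit, Cnih4 2.15, Kmt2d -1.11 and Fip1l1 -1.10. The value of Kmt2d had been -1.74 in the first fit. Med21 had 0.70 after 1.30, and Jade2 -0.48 after -1.02. The part of RNA length, reverse transcription or library making in the tilt was not tested. The counts of this fit are given for each gene list that follows, to be read against the 5.67% and 5.04% of all tested genes.

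**Figure D3:**
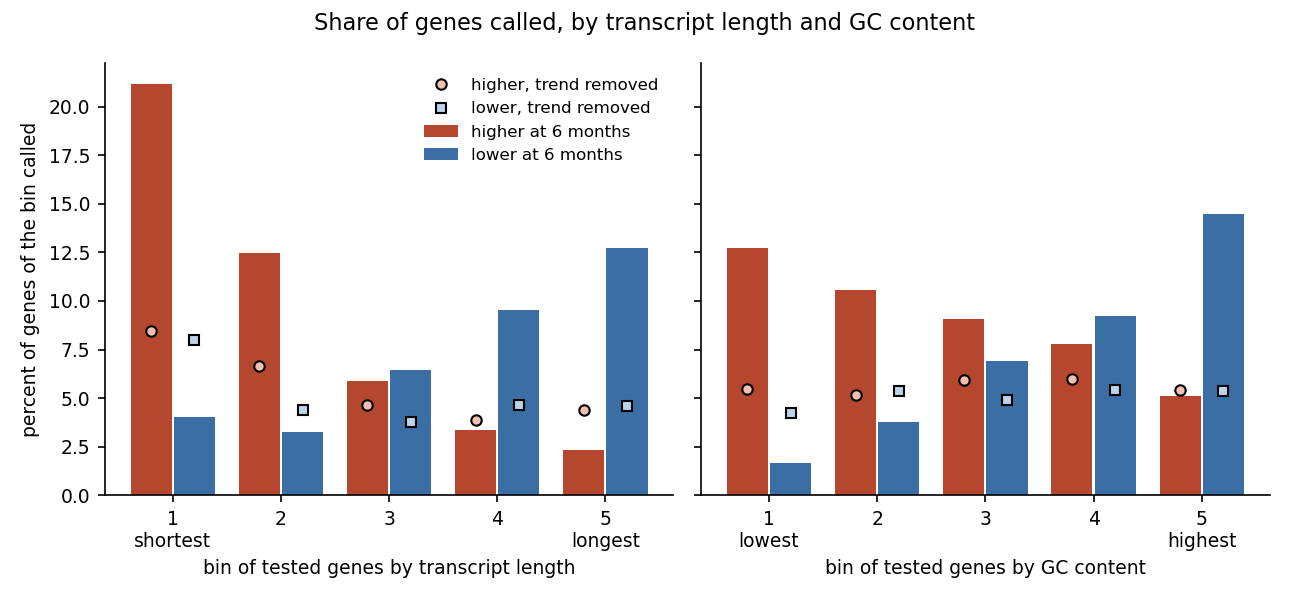
Genes were split into 5 equal bins by transcript length (left) and GC content (right). Bars give the percent of each bin called higher (red) or lower (blue) at 6 months, and circles and squares the same after the length and GC trend was removed from each library. In the shortest bin 21.2% were higher and in the longest bin 12.7% lower, and the slopes across the bins are flatter for circles and squares.

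Nuclear genes of oxidative phosphorylation, which code for the respiratory chain and the ATP synthase of mitochondria, were the gene list with the highest median. Of its tested members 27 of the 70 rose and 1 fell, where 9.06% and 7.16% of all genes did. The median log2 fold change was 0.58, against 0.0017 over all tested genes. By gene name, the higher members were 12 of 34 genes of complex I, 2 of 4 of complex II, 5 of 9 of complex III with cytochrome c, and 7 of 10 of complex IV. Of the ATP synthase, 1 of 13 rose and 1 fell. Ndufa4, a small subunit first assigned to complex I, had 124, 256 and 448 CPM in 6 month oocytes, against 38.4, 80.2 and 234 CPM in 4 week oocytes. The groups overlapped, and the log2 fold change was 1.60 ± 0.27, with adjusted p = 2.04e-04. Ndufa1 and Ndufb3 of complex I rose by 1.55 and 1.38, and Sdhd, a membrane anchor of complex II, by 1.11 on the log2 scale. In the fit with the trend removed 14 rose and 1 fell, with a median of 0.41. The median transcript of the list was 711 bases long, against 2014 over all tested genes. Mitochondrially encoded genes were not analysed here.

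Of 81 listed genes of cytosolic ribosomal proteins 35 were tested. Of these 10 rose and 0 fell, where 9.06% and 7.16% of all tested genes did. The median log2 fold change of the list was 0.56. The higher members were 4 of 17 genes of the large and 6 of 18 of the small subunit. Rpl32 had 30.8, 84.03 and 112 CPM in 6 month oocytes, against 10.3, 31.2 and 45.7 CPM in 4 week oocytes, with a log2 fold change of 1.37 ± 0.26 and adjusted p = 5.52e-04. Rpl34, Rplp1 and Rpl11 rose by 0.98, 1.41 and 0.97. Ribosomal protein genes have many processed copies in the genome, and how reads were split between them is not given in the sources used here. Of the proteasome genes 10 of the 34 rose and 2 fell, to be read against the same shares of all tested genes. The core particle, which cuts proteins, accounted for 6 of 14 and the ATPase ring that feeds it for 2 of 6. Psma5, a subunit of the core particle, had 57.4, 85.9 and 135 CPM in 6 month oocytes, against 8.51, 29.7 and 54.7 CPM in 4 week oocytes, with no overlap. Its log2 fold change was 1.39 ± 0.21, with adjusted p = 4.61e-05. Psmb2 and Psma2, also of the core, rose by 1.29 and 1.06. Psmd3, of the regulatory lid, had 81.6, 119 and 217 CPM in 6 month oocytes, against 159, 286 and 444 CPM in 4 week oocytes and a log2 fold change of -1.12 ± 0.18. After removal of the trend 4 rose and 0 fell of the ribosomal genes, and 4 rose and 3 fell of the proteasome genes. The 4 ribosomal genes were all of the large subunit, and 0 of the small subunit passed.

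**Figure D4:**
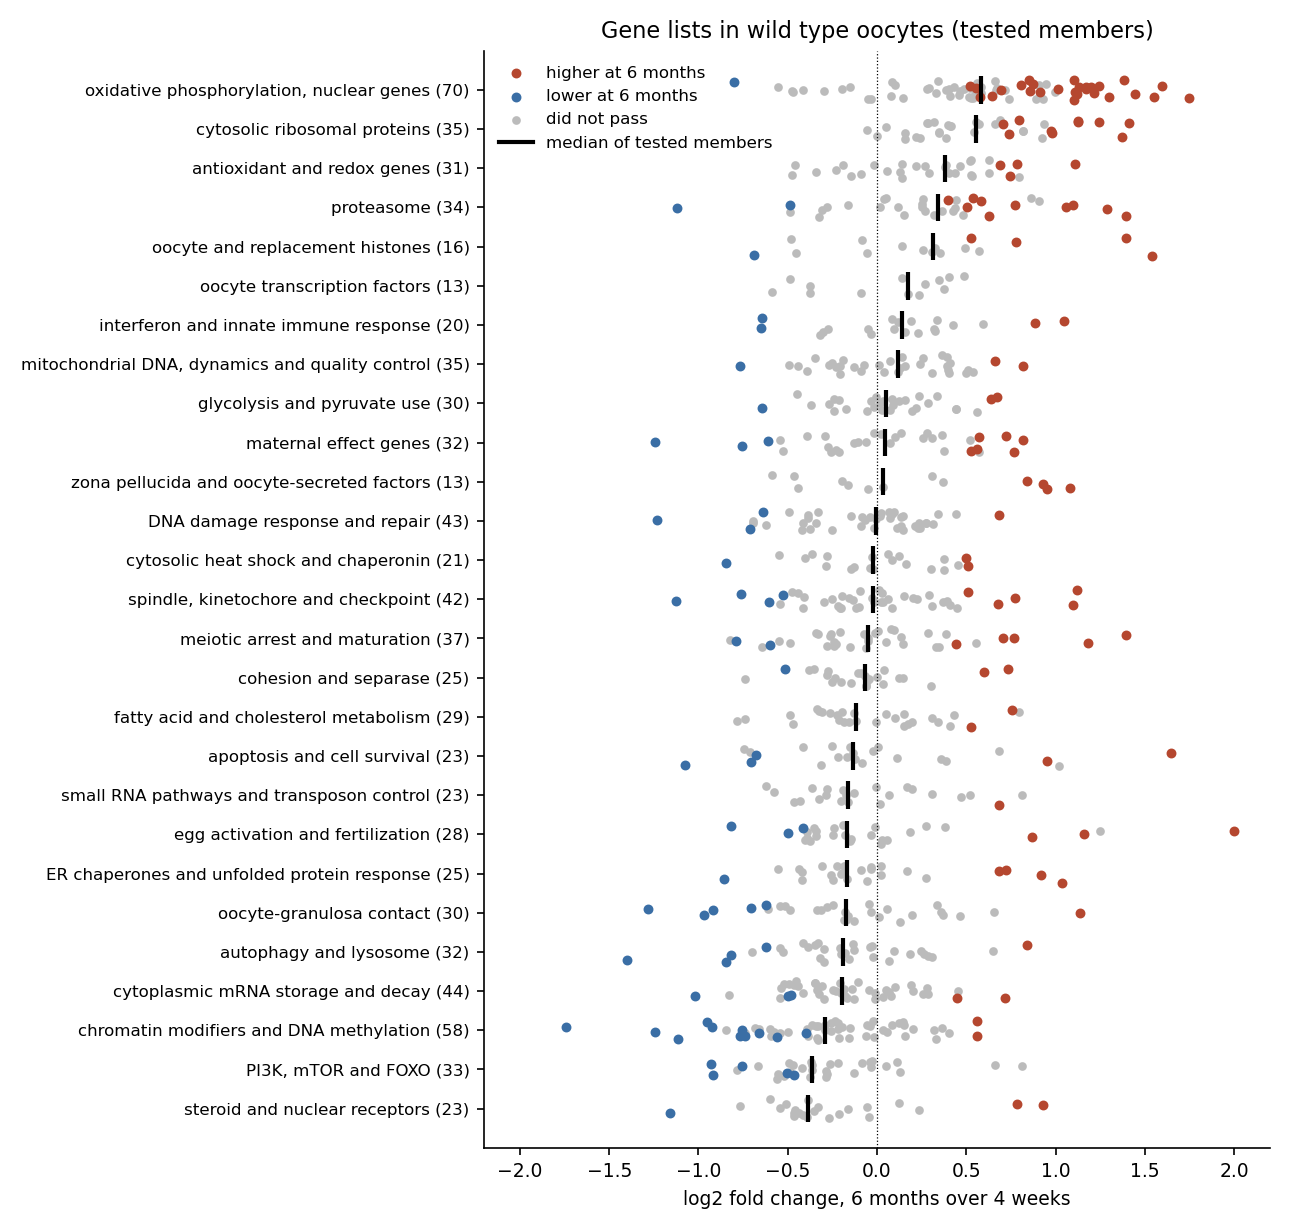
Each row is 1 of 27 gene lists with its number of tested members in brackets, ordered by median. Points are members, placed by log2 fold change of 6 months over 4 weeks, red where higher, blue where lower and grey where the gene did not pass, and black ticks are medians. The median was 0.58 for oxidative phosphorylation and 0.56 for ribosomal proteins at the top, and -0.29 for chromatin modifiers, -0.36 for PI3K, mTOR and FOXO genes and -0.39 for steroid and nuclear receptors at the foot.

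In the list of zona pellucida, oocyte-secreted and related genes, 4 of the 13 tested members rose and 0 fell. Of all tested genes 9.06% rose and 7.16% fell. Zp3, the zona protein long studied as the sperm receptor of the mouse, had 433, 639.5 and 908 CPM in 6 month oocytes, against 146, 374 and 569 CPM in 4 week oocytes. All 11 libraries at 6 months lay above the 4 week median, and the log2 fold change was 0.93 ± 0.19, with adjusted p = 0.00121. The other zona genes gave smaller differences that did not pass. Zp2 had medians of 305 CPM in 6 month and 278 CPM in 4 week oocytes (log2 difference 0.31 ± 0.17), and Zp1 had 228 CPM in 6 month and 203 CPM in 4 week oocytes (0.03 ± 0.22). The 3 other genes that rose were Oosp1, Oosp2 and Oosp3, which code for oocyte-secreted proteins of 1 family. Their 6 month medians were 4323, 387 and 2613 CPM, against 4 week medians of 2331, 166 and 1426 CPM. Their log2 fold changes were 0.95 ± 0.19, 1.08 ± 0.19 and 0.84 ± 0.18. After removal of the trend Zp3 stood at 1.02, Oosp1 at 0.42 and Oosp2 at 0.52, while Oosp3, at 0.25, no longer passed.

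The growth factors that oocytes send to granulosa cells did not pass the test. Gdf9 had 5714, 17844 and 35818 CPM in 6 month oocytes, against 5741, 19959.9 and 29592 CPM in 4 week oocytes, a log2 difference of -0.05 ± 0.25 with adjusted p = 0.918. Bmp15 had 1099.8, 1522 and 1778 CPM in 6 month oocytes, against 1021, 1635 and 2364 CPM in 4 week oocytes, a difference of -0.16 ± 0.14 with adjusted p = 0.475. The groups overlapped widely for both genes. Bmp6 and Fgf8 differed by -0.46 ± 0.23 and -0.59 ± 0.35, with medians of 30.2 CPM in 6 month and 48.5 CPM in 4 week oocytes and of 3.93 CPM in 6 month and 6.59 CPM in 4 week oocytes. Astl, the protease that hardens the zona after fertilization, had medians of 1303 CPM in 6 month and 1159.8 CPM in 4 week oocytes, a difference of 0.37 ± 0.27. Zp3r and Kitl, related genes of the list that are not among these growth factors, were present at a few CPM. They differed by -0.44 ± 0.41 and -0.20 ± 0.40. None of the 13 oocyte transcription factors tested passed, where 16.2% of all tested genes did. Their median log2 difference was 0.17, and with the trend removed 0 rose and 1 fell.

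Maternal effect genes, whose products in the egg are needed by the embryo, had calls in both directions, as 6 of the 32 tested members rose and 3 fell, where 9.06% and 7.16% of all tested genes did. Nlrp9c had 507, 803 and 1064 CPM in 6 month oocytes, against 333, 428 and 539 CPM in 4 week oocytes, with a log2 fold change of 0.82 ± 0.13 and adjusted p = 9.06e-05. It has close paralogs, between which reads may have been split. Zar1l, a relative of the RNA-binding protein ZAR1, rose by 0.72 on the log2 scale. Tet3, the enzyme that oxidizes DNA methylation of the paternal genome after fertilization, had 218, 511 and 1090 CPM in 6 month oocytes, against 932, 1303 and 2073 CPM in 4 week oocytes. All 11 libraries at 6 months lay below the 4 week median, and the log2 fold change was -1.25 ± 0.21, with adjusted p = 1.86e-04. Smarca4, the motor of the SWI/SNF remodelling complex, fell by 0.76 on the log2 scale. In the fit with the trend removed 4 rose and 3 fell, and Smarca4, at -0.26, no longer passed.

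Tet3, Smarca4 and Kmt2d belong as well to the chromatin modifiers, of which 2 of 58 tested members rose and 11 fell. Of all tested genes 9.06% rose and 7.16% fell. The median log2 fold change of the chromatin list was -0.29. Ep300, a histone acetyltransferase, had 13.1, 21.4 and 62.9 CPM in 6 month oocytes, against 31.1, 46.6 and 94.96 CPM in 4 week oocytes, with a log2 fold change of -1.12 ± 0.25 and adjusted p = 0.00279. The median transcript of the list was 2939.5 bases long, and with the trend removed 0 members rose and 5 fell. Of the oocyte and replacement histones, 4 of the 16 tested members rose and 1 fell, a small count to be read against the same shares. H3f3a, which codes for a replacement form of histone H3 as its near copy H3f3b does, had 248, 369.7 and 589 CPM in 6 month oocytes, against 69.04, 159 and 259 CPM in 4 week oocytes. The log2 fold change was 1.39 ± 0.19, with adjusted p = 2.05e-05. H2bc4 and Macroh2a1 rose by 1.54 and 0.78, and H1f0, a linker histone, fell by 0.69 on the log2 scale. With the trend removed 3 rose and 2 fell.

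For meiosis, 5 of the 37 tested members rose and 2 fell in the list of meiotic arrest and maturation. In the list of spindle, kinetochore and checkpoint genes, 5 of the 42 tested members rose and 4 fell. These counts, and those of cohesion, repair and egg activation that follow, are small and are to be read against the 9.06% higher and 7.16% lower of all tested genes. Mapk3, one of the MAP kinases that hold the egg in metaphase, had 56.8, 109 and 156 CPM in 6 month oocytes, against 31.2, 46.2 and 77.6 CPM in 4 week oocytes. All 11 libraries at 6 months lay above the 4 week median, and the log2 fold change was 1.18 ± 0.18, with adjusted p = 5.96e-05. Cdk1, the kinase that drives the resumption of meiosis, had medians of 10.5 CPM in 6 month and 4.13 CPM in 4 week oocytes and a log2 fold change of 1.40 ± 0.33. Its partners Cks2 and Cks1b rose by 0.76 and 0.70. Among the spindle genes, Birc5 and Incenp, which sit in the same complex at the centromere, went opposite ways. Birc5 had 281, 515 and 742 CPM in 6 month oocytes, against 139, 229 and 405 CPM in 4 week oocytes, and a log2 fold change of 1.10 ± 0.19. Incenp had 66.9, 96.9 and 149.8 CPM in 6 month oocytes, against 129, 175 and 203 CPM in 4 week oocytes, and a log2 fold change of -0.76 ± 0.14. Bub3, of the spindle checkpoint, rose by 0.77, and Myo10, a motor protein, fell by 1.13 on the log2 scale. With the trend removed 3 rose and 3 fell of the maturation genes and 6 rose and 4 fell of the spindle genes, and Cks2 and Cks1b no longer passed.

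Of the cohesion genes, 2 of 25 tested members rose and 1 fell. Pttg1, the securin that restrains separase, had 3233, 5208 and 8945 CPM in 6 month oocytes, against 2143, 3376 and 6821 CPM in 4 week oocytes and a log2 fold change of 0.73 ± 0.19. Esco2, which acetylates cohesin, rose by 0.60, and Espl1, separase itself, fell by 0.51 on the log2 scale. None of these 3 passed with the trend removed. In DNA damage response and repair, 1 of the 43 tested members rose and 3 fell. Rad51c, of homologous recombination, rose by 0.68, and the uracil glycosylase Ung and Mdc1 fell by 0.64 and 1.23 on the log2 scale. After removal of the trend 0 rose and 2 fell of the cohesion genes, and 1 rose and 5 fell of the repair genes, with Ung among those that no longer passed. Ung also lost its call with upper quartile scaling, without a filter, with limma voom, with all oocytes in 1 model, with the replicate block and with the granulosa covariate, and Esco2 without a filter, with the covariate and without the 3 libraries least like their groups.

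In the list of PI3K, mTOR and FOXO genes, the pathway that wakes resting oocytes, 0 of the 33 tested members rose and 5 fell. The median log2 fold change was -0.36. The counts of this list, the contact genes and the receptors are small. They are to be read against the 9.06% higher and 7.16% lower of all tested genes. Pik3r1, the regulatory subunit of PI3K, had 75.8, 125 and 188 CPM in 6 month oocytes, against 177, 223 and 306 CPM in 4 week oocytes, with a log2 fold change of -0.75 ± 0.15 and adjusted p = 0.00106. Akt1, Ddit4, an inhibitor of mTOR, and Igf1r fell by 0.50, 0.93 and 0.92 on the log2 scale. With the trend removed 1 rose and 2 fell, and Ddit4 and Igf1r no longer passed. Among the genes of oocyte and granulosa contact, 1 of the 30 tested members rose and 5 fell. Smad4 and Smad3, which carry TGF-beta signals to the nucleus, had medians of 24.7 CPM in 6 month and 57.9 CPM in 4 week oocytes and of 220.0 CPM in 6 month and 326 CPM in 4 week oocytes, with log2 fold changes of -0.97 ± 0.22 and -0.62 ± 0.16. Acvr2b, an activin receptor, fell by 1.28 and Dll3, a Notch ligand, rose by 1.14 on the log2 scale. In the fit with the trend removed 2 rose and 3 fell of the contact genes, and Acvr2b no longer passed. Steroid and nuclear receptors had the lowest median of all lists, -0.39, where 2 of 23 rose and 1 fell. Pparg, a receptor for fatty acids, had medians of 71.7 CPM in 6 month and 38.5 CPM in 4 week oocytes and its relative Ppara 11.4 CPM in 6 month and 23.7 CPM in 4 week oocytes. Pparg rose by 0.93 and Ppara fell by 1.16 on the log2 scale. Pgrmc1, a progesterone receptor membrane component, rose by 0.78. With the trend removed 1 rose and 1 fell of the receptors, and Pgrmc1 no longer passed.

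In protein folding, 4 of the 25 tested members rose and 1 fell among the genes of the endoplasmic reticulum. Among 21 cytosolic chaperones 2 rose and 1 fell. These counts, and those of the redox and decay genes below, are small. They are to be read against the 9.06% higher and 7.16% lower of all tested genes. Sdf2l1 fell by 0.86, while Sec61b, of the protein translocation channel, Atf4, a stress-induced transcription factor, and Manf rose by 0.92, 0.72 and 0.68 on the log2 scale. Hsph1 fell by 0.84, and Cct5 and Dnaja1 rose by 0.50 and 0.51. Antioxidant and redox genes gave 4 higher and 0 lower of 31. Txn1, thioredoxin, had 26.1, 51.8 and 91.1 CPM in 6 month oocytes, against 8.83, 25.1 and 42.5 CPM in 4 week oocytes and a log2 fold change of 1.11 ± 0.23. Prdx1, Gstp1 and Gsta4 rose by 0.69, 0.75 and 0.78. With the trend removed 2 rose and 1 fell of the endoplasmic reticulum genes, 1 rose and 3 fell of the cytosolic chaperones and 2 rose and 1 fell of the redox genes, and Manf, Cct5, Dnaja1, Prdx1 and Gsta4 no longer passed. For messenger RNA storage and decay, 2 of 44 rose and 3 fell. Upf1, the helicase of nonsense-mediated decay, Eif4enif1 and Dcp1a, of decapping, fell by 1.02, 0.48 and 0.50, and Tent5c rose by 0.45 on the log2 scale. After removal of the trend 2 rose and 2 fell, and Eif4enif1 and Dcp1a no longer passed.

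In egg activation and fertilization, 3 rose and 3 fell of 28. Calm2, which codes for calmodulin, had 54.5, 105 and 276 CPM in 6 month oocytes, against 12.1, 28.8 and 54.05 CPM in 4 week oocytes, with no overlap. Its log2 fold change was 2.00 ± 0.27, with adjusted p = 2.05e-05. Cd9, the membrane protein that sperm and egg need to fuse, had 22.03, 42.3 and 49.96 CPM in 6 month oocytes, against 10.1, 17.1 and 26.95 CPM in 4 week oocytes. Only the edges of its groups overlapped, and its log2 fold change was 1.16 ± 0.18. Wnk1 fell by 0.82 on the log2 scale. After removal of the trend 4 rose and 4 fell, and Calm2 and Cd9 stood at 1.64 and 0.90 and still passed.

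In the other lists the counts are to be read against the 16.2% of all tested genes that passed. In apoptosis and cell survival 2 rose and 3 fell of 23, with Casp8 and Bad higher by 0.95 and 1.65, and Bcl2l1 and Bcl2l11 lower at -0.68 and -0.70. Bad was at a low level, with medians of 3.08 CPM in 6 month and 0.795 CPM in 4 week oocytes and an SE of 0.50. In the fit with the trend removed 3 rose and 1 fell, and Bcl2l11 no longer passed. In autophagy and lysosome 1 rose and 4 fell of 32. Npc2, a lysosomal cholesterol carrier, rose by 0.84, while Tfe3, Ulk1 and Atg9a stood at -0.84, -0.82 and -1.40. There 1 rose and 4 fell in the fit with the trend removed, and Ulk1 and Atg9a no longer passed. In the list of interferon and innate immunity 2 rose and 2 fell of 20, with Ifitm3 and B2m at 0.89 and 1.05, and Stat3 and Rela at -0.65 and -0.64. Without the trend 1 rose and 0 fell, and B2m, Stat3 and Rela no longer passed. In glycolysis and pyruvate use, the carbon source of oocytes, 2 rose and 1 fell of 30. Ldhb and Mdh1 rose by 0.67 and 0.64, and Slc2a1, a glucose transporter, stood at -0.64. Without the trend 0 rose and 1 fell, and Ldhb and Mdh1 no longer passed. In fatty acid and cholesterol metabolism 2 rose and 0 fell of 29, namely Acadm and Fasn, at 0.52 and 0.76. Without the trend 1 rose and 0 fell, and Acadm, with adjusted p = 0.125, no longer passed. Both calls were also lost without a filter, with the replicate block and with the granulosa covariate, and that of Fasn with limma voom and without the 3 libraries least like their groups. In mitochondrial DNA, dynamics and quality control 2 rose and 1 fell of 35, Mcu at -0.77 and Mff and Ssbp1 at 0.66 and 0.82. Without the trend 0 rose and 3 fell, and Mff, with adjusted p = 0.0937, and Ssbp1, with adjusted p = 0.216, no longer passed. Ssbp1 did not pass with the replicate block or the granulosa covariate either. In small RNA pathways Gtsf1, which acts with piRNAs, rose by 0.68, and 0 of 23 genes fell. Without the trend 1 rose and 3 fell, and Gtsf1 no longer passed.

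By kind of gene, the 2 directions were even for protein-coding genes, with 738 higher and 756 lower of 9372. Of all tested genes 9.06% were higher and 7.16% lower. Of 650 long noncoding genes 143 were higher and 6 lower, with a median log2 fold change of 0.38. Of 615 pseudogenes 78 were higher and 7 lower, with a median of 0.23. Both classes have short transcripts, with median lengths of 994 and 751 bases. With the trend removed 53 noncoding genes were higher and 11 lower, and 31 pseudogenes were higher and 22 lower.

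Oocytes of 7 week old wild type mice give the lead genes an age between the 2 compared. On a scale shared by all oocyte libraries, the median of Mis18a was 17.9 CPM at 4 weeks, 19.3 CPM at 7 weeks and 128 CPM at 6 months. The 5 libraries at 7 weeks ran from 16.4 to 35.1 CPM, below all those at 6 months. Cnih4 gave 27.1, 31.6 and 119 CPM at 4 weeks, 7 weeks and 6 months, and Kmt2d 485, 510.0 and 149 CPM. Fip1l1 had 399, 338 and 188 CPM, with 7 week libraries from 283 to 698 CPM. For these 4 genes the 7 week medians thus lay nearer to the 4 week than to the 6 month medians. These levels are a description, and the 3 ages came in separate tables.

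Esr2 knockout oocytes give the same comparison of ages in libraries that the wild type comparison does not use. The targeted gene was at 0 in all 4 knockout libraries at 6 months and at 0 to 0.190 CPM in the 7 at 4 weeks. In knockout oocytes 271 of the 13192 genes tested in a model of the 4 groups passed (2.05%), 208 of them higher and 63 lower at 6 months than at 4 weeks (1.58% and 0.478%). These counts rest on each single library. Without samples 1, 2, 3 and 4 of the 6 month knockout group in turn, 21, 47, 50 and 136 genes were higher and 4, 5, 2 and 48 lower. Of the 983 genes higher in wild type, 964 (98.1%) were above 0 in knockout too, where 52.9% of all 10850 genes were. Of the 777 lower genes, 747 (96.1%) were below 0 in knockout, where 47.1% of all genes were. The test in knockout was passed by 190 of the higher and 49 of the lower genes, and no gene passed in opposite directions.

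The median log2 fold change of the 983 higher genes was 0.79 in knockout and 0.90 in wild type libraries in this model, and that of the 777 lower genes -0.56 and -0.76. The genes had been chosen by their wild type values. Mis18a had a log2 fold change of 2.11 ± 0.33 in knockout oocytes (adjusted p = 6.50e-04), Cnih4 1.81 ± 0.40 (adjusted p = 0.0137) and Idua 2.51 ± 0.42 (adjusted p = 7.05e-04). Without knockout sample 1 of 6 months these log2 fold changes were 1.37 (adjusted p = 0.0493), 1.55 (adjusted p = 0.0950) and 1.76 (adjusted p = 0.0553), and without sample 2 that of Cnih4 was 1.79 (adjusted p = 0.0519). Kmt2d, at -1.10 ± 0.31, had adjusted p = 0.0508 and Fip1l1, at -0.63 ± 0.20, adjusted p = 0.0770. The tilt with transcript length was present in knockout as well, with median log2 fold changes of 0.26 in the bin of shortest and -0.29 in that of longest transcripts. The knockout libraries came in the same 2 tables as the wild type ones, so the tables' part in both comparisons was not tested. The difference of the age effects, wild type minus knockout, passed for 0 of 13192 genes by edgeR, with 311 at an unadjusted p under 0.05. By DESeq2 it passed for 0 of 15462 genes, with 530 at an unadjusted p under 0.05. The knockout group of 6 months held 4 libraries, and errors of the difference were large, as for Mis18a with 0.77 ± 0.41. That no gene passed therefore does not show equal age effects in the 2 genotypes.

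**Figure D5:**
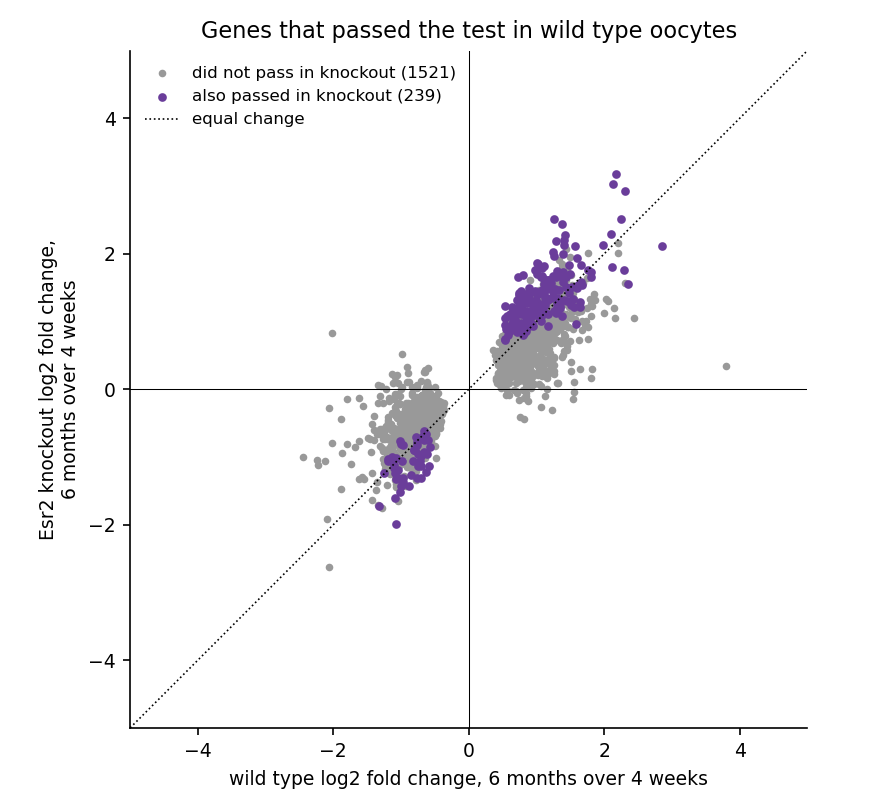
Each point is 1 of the 1760 genes that passed in wild type oocytes. The x axis is the log2 fold change of 6 months over 4 weeks in wild type and the y axis that in Esr2 knockout oocytes, purple where the gene also passed in knockout (239) and grey where it did not (1521), with a dotted line of equal change. 98.1% of the higher and 96.1% of the lower genes have the same sign in both.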

How the data were processed

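Oocyte RNA was sequenced by Smart-seq2. The submitters' processing notes name STAR, Partek, DESeq2 and the mouse build mm10. The counting settings, the strand setting and the gene annotation are not given in the sources used here. The deposited tables, one for each age, hold the authors' expected counts per gene (estimated counts that need not be whole), with no normalization. Of the values used, 18.0% in the 6 month table and 17.2% in the 4 week table were not whole, and all were rounded. The 15462 genes held in both tables were joined. Mitochondrially encoded genes were not analysed here. No pair of libraries had identical values.

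Genes passing the filterByExpr rule were scaled by TMM and tested with edgeR 4.0.16 (quasi-likelihood F test with robust dispersion) in R 4.3.3, with Benjamini-Hochberg adjustment over the 10850 genes and a threshold of 0.05. Errors are standard errors of that fit. Knockout oocytes and the difference between genotypes were tested in 1 model of 4 groups over 13192 genes. One column of 7 week knockout oocytes joins 2 sample numbers and was used only as a library of its group, to scale all oocytes and in the model of all oocyte libraries. Marker sums were compared with a two-sided permutation test of 100000 resamples, adjusted over the 8 of 9 marker lists that had a value. The gene by gene test of the wild type comparison was tested on simulated data, in which 200 of 10850 genes were changed. It recovered 55% of the 2-fold and 95% of the 4-fold changes, and 4 of its calls were false. Changes of 2-fold were thus often missed.

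Named genes are Esr2 and Esr1, the 12 higher and the 12 lower genes of smallest p among those that passed and averaged 5 CPM or more in the group where they were higher, the 6 higher and the 6 lower of largest change under the same conditions, up to 4 members of smallest p from each described list, and the zona pellucida and oocyte-secreted list whether or not its genes passed. Predicted and clone-named loci and pseudogenes were left out of the first sets. Genes named outside this rule were chosen after their values were seen. Some genes that the rule names are not reported here. The members and all 27 gene lists were chosen with earlier results of these data known. The alternatives were limma 3.58.1 (voom), DESeq2 1.42.0, other scalings and filters, all oocyte libraries in 1 model, thinned counts, a granulosa covariate, a replicate block and a 2-fold minimum. After the data were seen, the removal of a length and GC trend from each library (natural splines of 4 degrees of freedom), the omission of single libraries or of 3 libraries, and a join that keeps genes of 1 table were added. Tables and figures were made with Python 3.11.15, pandas 2.3.3 and matplotlib 3.10.9.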

Additional observations from a re-analysis of the deposited data

Results flagged for a closer look

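In knockout oocytes of 6 months, sample 1 stood apart from the other 3 libraries for 2 named genes, by the gap between the highest library and the next relative to the range of the group. Mis18a reached 248.6 CPM in that library, where the group had a lowest value of 63.6 and a median of 68.2 CPM. Idua reached 58.55 CPM in the same library, with a lowest value of 12.9 and a median of 16.9 CPM in the group. These were 2 of 18 group checks, and chance flags about 1 in 20. Without that library 21 genes were higher and 4 lower in knockout oocytes, against 208 and 63 with it. The log2 fold change of Mis18a in knockout oocytes was 1.37 without it, against 2.11 with it, and that of Idua 1.76, against 2.51 (edgeR adjusted p without it 0.0493 and 0.0553).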

How the results depend on the processing

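Of the 133 named genes, 122 passed the test, and none changed direction under the alternatives that tested it. The 5 CPM minimum and the thinned counts tested 115 of these 122, and the replicate block 120. The count of genes higher and lower at 6 months was 983 and 777. It was 971 and 776 with DESeq2 size factors, 829 and 696 without a filter, 972 and 753 with a minimum of 5 CPM in 11 libraries, 1257 and 1008 with DESeq2, 1058 and 919 with limma voom, 1119 and 956 with all oocytes in 1 model, 895 and 708 with thinned counts, and 660 and 566 with the granulosa marker share as a covariate. Upper quartile scaling gave 1111 and 693, so that 61.6% of calls were higher, against 55.9%. A 2-fold minimum left 372 and 182 genes. With the length and GC trend removed 615 genes were higher and 547 lower, and 31 named genes no longer passed. The 2-fold minimum ended 63 calls of named genes and the granulosa covariate 18. By medians the largest part of that granulosa marker share was Cyp19a1. Esco2, Ung, Cct5, Dnaja1, Tent5c, Acadm and Fasn no longer passed without a filter, Iars2, Ung and Fasn with limma voom, Ung and Dnaja1 with all oocytes in 1 model, and Ung with upper quartile scaling. Without the 3 libraries least like their groups, 1272 genes were higher and 1380 lower, Esco2, Cct5 and Fasn no longer passed, and the oocyte marker sum differed by 0.23 on the log2 scale with a permutation adjusted p = 0.0092, against 0.18 and 0.585 with all libraries. The causes were not tested.

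By the rule that every pair exceed 0.1, replicate numbers were not taken to pair the libraries. Over 11 same-numbered pairs the residual correlation was -0.06 to 0.58 with a median of 0.10, and 5 pairs exceeded 0.1. A fit with the replicate block on 22 libraries gave 1013 higher and 989 lower genes, and in it Ung, Ssbp1, Macroh2a1, Acadm, Fasn and Igf1r no longer passed and 1 other named gene did. In knockout oocytes DESeq2 called 348 genes higher and 281 lower, and 93 and 43 passed with the trend removed. Leaving out 1 knockout library of 6 months gave 21 to 136 higher and 2 to 48 lower genes. Wild type groups of 11 and 12 libraries were not refitted without single libraries.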

Other observations

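The 6 month table holds 1193 genes that the 4 week table does not, and the 4 week table holds 587 that the 6 month table does not, so these were not compared. Of the 133 named genes, 131 are in the annotation, 55 overlap another annotated gene and 20 overlap a gene that was tested. The strand setting of the counting is not given in the sources used here, so reads of such pairs cannot be told apart.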
